A study of Mus musculus with 12 samples.

Results

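The BCL2 family decides, at the outer mitochondrial membrane, whether a stressed cell lives or dies. Survival members (*Bcl2*, *Bcl2l1*, which encodes BCL-XL, and *Mcl1*) hold the effectors *Bax* and *Bak1* in check, and the effectors, once free, open the membrane and release cytochrome c. BH3-only members (*Bbc3*, encoding PUMA, *Pmaip1*, encoding NOXA, *Bcl2l11*, encoding BIM, *Bid* and *Bik*) sense damage, growth factor loss or death receptor signals and tip this balance toward death, and in oligodendrocyte precursor cells (OPCs) the balance helps to set how many cells survive competition for growth factors. The 10 genes were chosen by symbol from the textbook membership of the family, with earlier results of these data known, and are 10 of 45563 gene symbols measured. They are a part of the family, and 14 other BCL2 family genes are described further below. All 10 were found in both tables of FPKM (fragments per kilobase, scaled to library size), and all 10 passed the filter on low values, although *Bik* did so on very few reads.

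RNA came from 12 libraries of primary mouse cortical OPCs, 3 in each of 4 groups. Libraries of both genotypes are labelled C57BL/6, the methods name C57BL/6J for WT, and the cells called TNFR2-/- here, labelled TNFR2 KO, carry a germline deletion of the TNF receptor TNFR2, so every cell type of the pups lacked it from conception. OPCs were taken with beads against PDGFRα from pups, of postnatal day 2 to 5 in the labels and 3 to 5 in the methods. The cells were grown for 3 days with PDGF-AA and FGF2, both of which are survival factors for these cells and were present in all 4 groups. Stimulated (St) cells received TNF, IFNγ and IL1β together, each at 25 ng/mL, for 3 h, and non-stimulated (NS) cells received vehicle. Thus the comparisons were the cytokine response within each genotype (WT St vs WT NS and TNFR2-/- St vs TNFR2-/- NS), the genotype difference within each condition, and the interaction, which is the difference between both responses. Whether a numbered library stands for 1 pup or several is not given in the sources used here.

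Libraries held 26886878 to 30335265 read pairs, as recovered from the FPKM. OPC markers summed to 3494 to 4115 CPM (reads scaled to library size) in NS and 2555 to 2980 in St libraries, microglial and endothelial markers to at most 1.74, and 5 of 6 microglial markers did not pass the filter on low values. Neuron markers summed to 90.9 to 114 in NS and 419.5 to 526 in St libraries, with *Tubb3* the one of 4 called higher and *Snap25* called lower, mature oligodendrocyte markers to 272 to 788 and mural and fibroblast markers to 74.8 to 869. Their part in the cytokine responses was not tested. Astrocyte markers (*Gfap*, *Aqp4*, *Aldh1l1*, *Slc1a2* and *Gja1*, all 5 detected) summed to 514 to 645 CPM in the 6 WT libraries and 806 to 1960 in the 6 TNFR2-/- libraries. Both libraries of TNFR2-/- culture 5 stood apart, with 1869 (NS) and 1960 (St) against at most 1010 elsewhere, and counts are given with and without them. Reads of *Tnfrsf1b*, the gene for TNFR2, numbered 12 to 24 (WT NS) and 61 to 145 (WT St), against 213 to 346 (NS) and 282 to 356 (St) among libraries labelled TNFR2-/-. This goes against a plain reading of the label, which exons the reads cover was not tested, and every genotype difference below rests on the labels.

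Calls needed 3 things, namely an adjusted p no higher than 0.05, a change of 1.5-fold or more and 1 FPKM or more on average, and "rose" or "fell" below means an adjusted p of at most 0.05. Cytokines called 3 of the 10 genes in WT OPCs (*Pmaip1*, *Bcl2l11* and *Bbc3*) and 3 in TNFR2-/- OPCs (*Bcl2l11*, *Pmaip1* and *Bid*), all higher and all BH3-only. Of 18081 genes tested, 7.53% were called in WT and 10.1% in TNFR2-/- OPCs, with 4.58% and 5.41% called higher and 2.95% and 4.68% called lower. No survival gene or effector was called in either genotype. Between genotypes 0 of the 10 were called in NS OPCs, where 2.9% of all genes were (1.62% higher and 1.28% lower in TNFR2-/-), and 0 in St OPCs, where 1.8% were (1.18% higher and 0.614% lower). In the interaction 0 of the 10 and 0.00553% of all genes were called. Before adjustment, limma placed 1 of the 10 at or under 0.05 between NS groups (*Bcl2l11*) and 5 between St groups (*Bbc3*, *Bax*, *Mcl1*, *Bid* and *Pmaip1*). In the interaction it placed 2 there, *Bcl2l11* and *Bik*, the latter on very few reads. The share of all genes at this unadjusted cutoff was not counted, so whether these numbers exceed it is not known. In the same comparisons, voom on recovered reads called 1, 0 and 0 of the 10. By adjusted p alone, 1 of the 10 passed between NS groups, 3 in WT OPCs, 5 in TNFR2-/- OPCs and 0 between St groups, against 10.9%, 16.1%, 26% and 5.45% of all genes. With cytokines the groups of 7 of the 10 did not overlap in WT OPCs and of 5 in TNFR2-/- OPCs, against 37.7% and 37.3% of all genes, and between genotypes those of 3 in NS and 3 in St OPCs, against 34.2% and 32.7%. Without culture 5, members called numbered 4 in TNFR2-/- OPCs, the added one being *Bbc3*, and 0, 3, 0 and 0 in the other comparisons as before. By adjusted p alone they then numbered 0 between NS groups (*Bcl2l11* lost), 4 in WT OPCs (*Bid* gained) and 4 in TNFR2-/- OPCs (*Bcl2* lost), and genes called between genotypes fell from 524 to 218 in NS and from 325 to 133 in St OPCs.

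**Figure D1:**
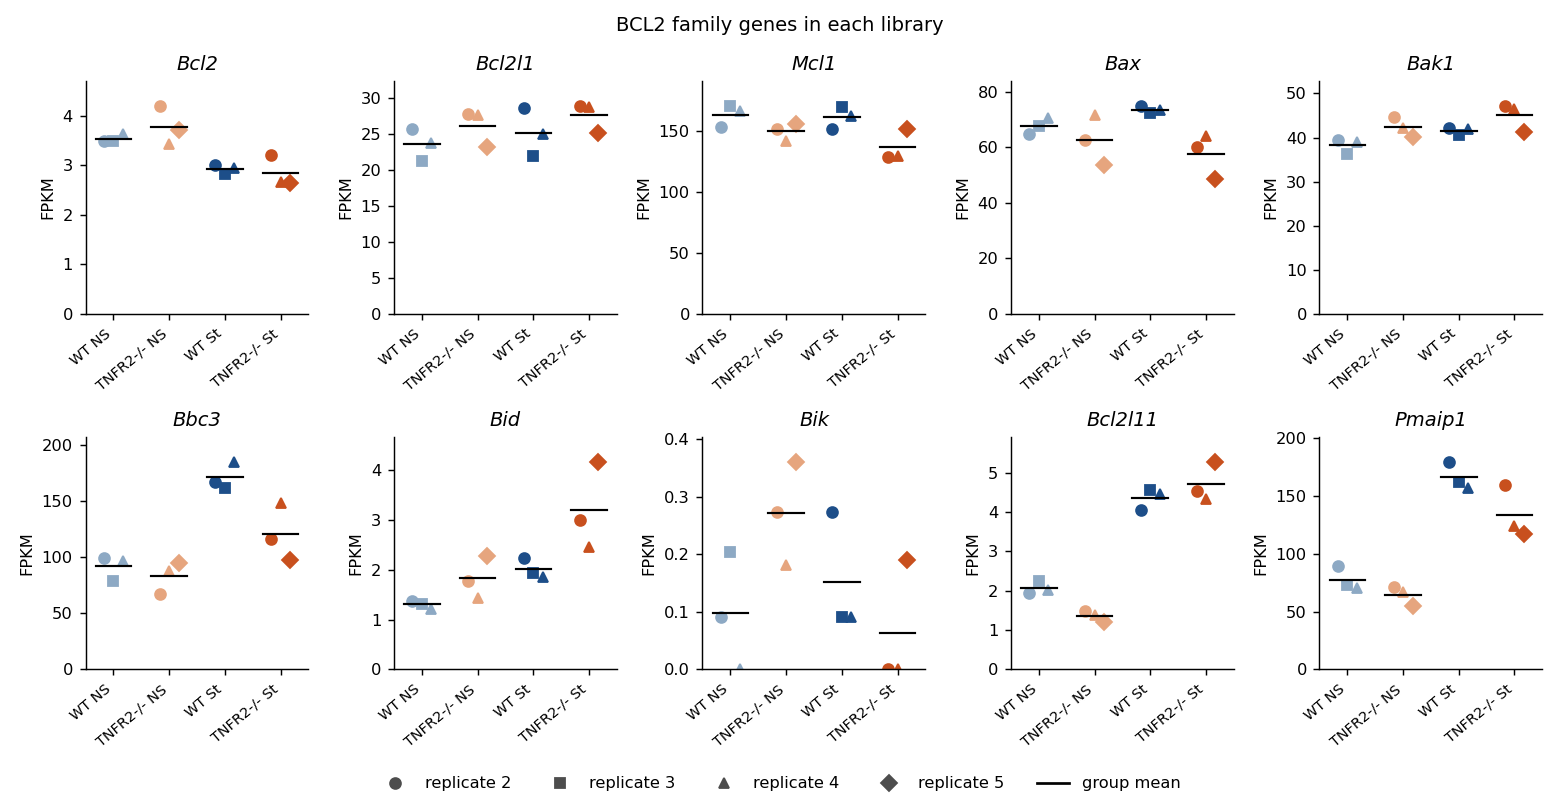
Level of each gene (vertical axis, FPKM, from 0) in the 12 libraries by group, with 1 point a library shaped by its number and a bar for the group mean. *Pmaip1*, *Bcl2l11* and *Bbc3* in WT St lie above all WT NS libraries, and the 4 groups of *Bcl2l1* overlap. *Bik* is plotted from 0 to 4 reads a library.

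FPKM can be compared between libraries for 1 gene but not between these genes, because the length that entered a gene's FPKM did not follow the length of its annotated exons. Levels between genes are therefore given as CPM per kilobase of annotated exon. On that scale *Bax* had the highest mean level over the 12 libraries (111) with *Mcl1* next (102), and then came *Bak1* (26.0), *Bcl2l1* (22.0), *Pmaip1* (12.1), *Bbc3* (6.54), *Bcl2l11* (4.12), *Bcl2* (3.20) and *Bid* (2.34). This order pools groups and does not hold in each, since *Bcl2* lay above *Bcl2l11* in NS OPCs (3.46 and 2.73 in WT, 3.71 and 1.80 in TNFR2-/-) and *Bid* (3.59) above *Bcl2* (2.78) in TNFR2-/- St. *Bik* was last at 0.0336. *Bax* and *Mcl1* were thus the abundant transcripts, and *Mcl1* made up 82.1% ± 2.02 of the level of the 3 survival genes in WT NS and 77.4% ± 2.89 in TNFR2-/- St (SD, n = 3).

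Summed on the same per length scale, the 5 BH3-only genes had a level of 17.9 ± 1.40 in WT NS and 35.8 ± 0.983 in WT St, and of 15.7 ± 0.0710 in TNFR2-/- NS and 31.2 ± 1.85 in TNFR2-/- St (SD, n = 3). Their sum was higher in St than in NS in each culture, by a ratio of 2.01 ± 0.0993 in WT and 1.99 ± 0.12 in TNFR2-/- cultures. The survival genes had a ratio of 0.995 ± 0.0153 in WT and 0.934 ± 0.0528 in TNFR2-/- cultures. The effectors had ratios of 1.09 ± 0.0481 and 0.948 ± 0.0284. These sums cover the 10 genes alone and leave out other detected BCL2 family genes. Among those, *Bad* had a level of 5.71 in WT NS, 6.03 in WT St, 6.50 in TNFR2-/- NS and 5.35 in TNFR2-/- St. *Bcl2l2* had 9.40, 8.43, 9.37 and 8.41 in the same order. The sums describe transcripts only, since the abundance and activity of the proteins were not measured here.

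**Figure D2:**
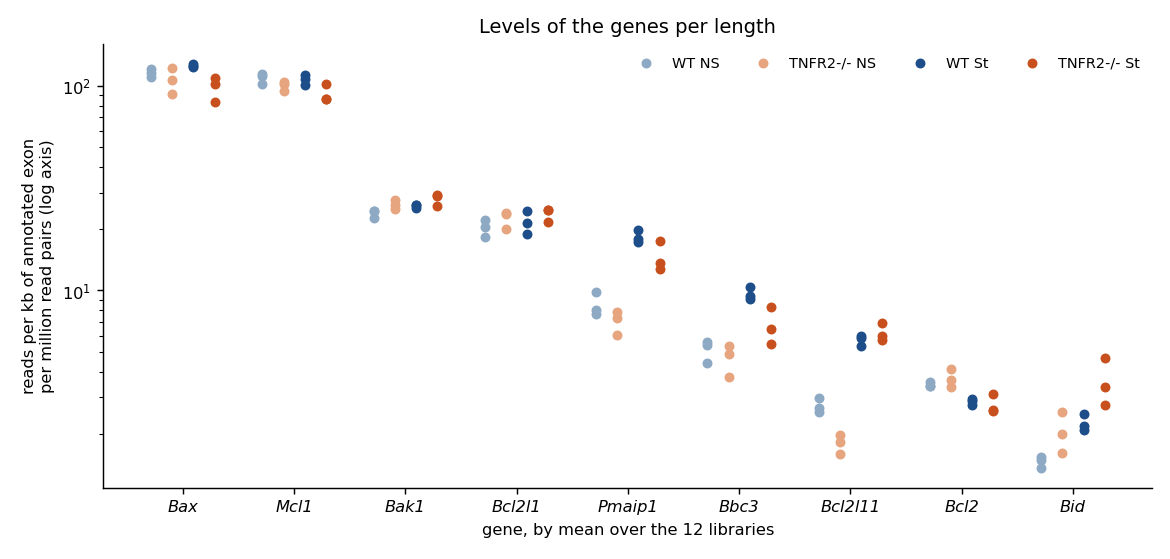
Level of 9 genes per length (vertical log axis, CPM per kilobase of annotated exon) in each library, colored by group and ordered by the mean over 12 libraries. *Bax* and *Mcl1* lie above the other genes in every library, and *Bid*, last by mean, spans 1.36 to 4.67, while *Bik*, at 0 to 4 reads a library, is left out.

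Among survival genes, *Bcl2* (ENSMUSG00000057329, GRCm38 chr1:106538178-106714274, minus strand) was the one that passed the test as fitted here, in TNFR2-/- OPCs. Its level in WT OPCs was 3.49, 3.49 and 3.63 FPKM in NS and 3.00, 2.83 and 2.96 FPKM in St libraries. In TNFR2-/- OPCs it was 4.20, 3.43 and 3.72 FPKM in NS and 3.20, 2.67 and 2.64 FPKM in St libraries. No St library reached the NS libraries of its genotype, and each of the 6 cultures was lower after stimulation. *Bcl2* fell by 0.36 ± 0.10 on the log2 scale in TNFR2-/- OPCs (SE, n = 3 and 3, adjusted p = 0.022), which is short of the fold threshold, and the log2 fold change in WT OPCs was −0.24 ± 0.10 (adjusted p = 0.148, and 0.0337 with each culture as a replicate block). The median of all genes was itself −0.11 in TNFR2-/- OPCs and −0.05 in WT OPCs, and after median-of-ratios scaling of the libraries, which brought these medians to −0.02 and −0.01, the value of *Bcl2* in TNFR2-/- OPCs was −0.26 (adjusted p = 0.0958). The adjusted p of *Bcl2* in TNFR2-/- OPCs was also above 0.05 without TNFR2-/- NS replicate 2 (0.0820), TNFR2-/- St replicate 4 (0.0730) or TNFR2-/- St replicate 5 (0.0657), and without culture 5 (0.091). Levels of *Bcl2* did not separate the genotypes in either condition, with 95% intervals of −0.14 to 0.30 in NS and −0.26 to 0.18 in St OPCs.

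*Mcl1* (ENSMUSG00000038612, GRCm38 chr3:95658788-95663176, plus strand), whose short-lived protein must be made continuously, was 153, 170.4 and 167 FPKM in WT NS and 152, 169.7 and 162 FPKM in WT St libraries. It was 152, 141 and 156 FPKM in TNFR2-/- NS and 129, 129 and 152 FPKM in TNFR2-/- St libraries. The log2 fold change with cytokines was −0.02 in WT (95% interval −0.19 to 0.15, adjusted p = 0.924) and −0.13 in TNFR2-/- OPCs (−0.31 to 0.04, adjusted p = 0.24, and 0.0382 with each culture as a replicate block). In St OPCs it was lower in TNFR2-/- than WT by a log2 fold change of −0.24 ± 0.08 that did not pass the test (adjusted p = 0.0873), and the groups touched, since the highest TNFR2-/- St library lay between WT St libraries. Of 5 genes that mark MCL1 for degradation or spare it, *Btrc*, a ubiquitin ligase subunit, was called lower in both genotypes (−0.59 ± 0.06 each, adjusted p = 5.99e-05 in WT and 4.46e-05 in TNFR2-/- OPCs), and the other 4 were not called. Of all genes, 2.95% in WT and 4.68% in TNFR2-/- OPCs were called lower. *Bcl2l1* ranged from 21.2 to 25.8 FPKM in WT NS, 23.2 to 27.8 in TNFR2-/- NS, 22.0 to 28.7 in WT St and 25.2 to 28.9 in TNFR2-/- St. All 4 groups overlapped, and the cytokine effect was 0.09 in WT (95% interval −0.17 to 0.34) and 0.08 in TNFR2-/- OPCs (−0.18 to 0.33) on the log2 scale.

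Neither effector passed the test in any comparison as fitted here. *Bax* (ENSMUSG00000003873, GRCm38 chr7:45461697-45466898, minus strand) was 65.0, 67.7 and 70.7 FPKM in WT NS, 74.9, 72.3 and 73.3 FPKM in WT St, 62.5, 71.7 and 53.8 FPKM in TNFR2-/- NS and 60.01, 64.2 and 48.7 FPKM in TNFR2-/- St libraries. Each WT culture was higher in St and each TNFR2-/- culture lower, by a log2 fold change of 0.12 ± 0.11 in WT (adjusted p = 0.593) and −0.12 ± 0.11 in TNFR2-/- OPCs (adjusted p = 0.492), with an interaction of −0.24 ± 0.16 that did not pass the test (adjusted p = 0.767). Between St groups, the 3 TNFR2-/- libraries lay below the 3 WT libraries, with a log2 fold change of −0.36 ± 0.11 (adjusted p = 0.0837). The lowest library in both conditions was TNFR2-/- replicate 5, and without culture 5 this difference was −0.24 (adjusted p = 0.0957). *Bak1* ranged from 36.2 to 39.4 FPKM in WT NS, 40.6 to 42.2 in WT St, 40.2 to 44.5 in TNFR2-/- NS and 41.3 to 47.2 in TNFR2-/- St. WT NS lay below the other groups, and no comparison of *Bak1* had an adjusted p under 0.185. *Bax* shares 5.33% of its stretches of 100 transcript bases with the overlapping *Gm45808* and *Bak1* shares 9.44% with *Ggnbp1*, so a part of their reads could have been counted for either gene.

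*Bcl2l11* (BIM; ENSMUSG00000027381, GRCm38 chr2:128126038-128162547, plus strand), which binds all survival proteins and is known to accumulate when growth factors are withdrawn, had the largest response of the 10 genes in TNFR2-/- OPCs. It was 1.94, 2.26 and 2.03 FPKM (616, 642 and 643 reads) in WT NS and 4.05, 4.57 and 4.47 FPKM (1286, 1448 and 1419 reads) in WT St libraries. It was 1.5, 1.39 and 1.21 FPKM (476, 444 and 388 reads) in TNFR2-/- NS and 4.54, 4.33 and 5.29 FPKM (1438, 1384 and 1602 reads) in TNFR2-/- St libraries. Thus the order was TNFR2-/- St and WT St together, then WT NS, then TNFR2-/- NS, and only the St groups overlapped. *Bcl2l11* rose by 0.91 ± 0.11 on the log2 scale in WT (adjusted p = 0.000158) and by 1.48 ± 0.11 in TNFR2-/- OPCs (adjusted p = 3.14e-06). These equal 1.89-fold and 2.79-fold, which the 0.5 FPKM added before the log makes too small at such low levels. Without it, the ratio of St to NS FPKM within a culture was 2.02 to 2.20 in WT and 3.03 to 4.36 in TNFR2-/- cultures. Both rises stayed at an adjusted p of at most 0.05 under all 26 alternatives run for each, with log2 ranges of 0.80 to 1.07 and 1.27 to 1.79.

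Before stimulation the level of *Bcl2l11* differed between genotypes. In NS OPCs it was lower in TNFR2-/- than in WT by a log2 fold change of −0.47 ± 0.11 (adjusted p = 0.0268), with groups that did not overlap, as was true of 34.2% of all genes. This passed the test but not the fold threshold, which it passed as log2(CPM + 0.5) (−0.59, adjusted p = 0.00976) and with voom on recovered reads (−0.61, adjusted p = 0.0141). Its adjusted p was above 0.05 without WT NS replicate 3 (0.108), WT NS replicate 4 (0.0812) or TNFR2-/- NS replicate 5 (0.0845), and without culture 5 (0.0537). In St OPCs the genotypes differed by 0.10 (95% interval −0.13 to 0.33, adjusted p = 0.582). The response within a culture was 0.88 to 0.97 in the 3 WT and 1.33 to 1.76 in the 3 TNFR2-/- cultures, without overlap, but the interaction, 0.57 ± 0.15, had an adjusted p of 0.496 over all genes with limma (0.118 to 0.838 over its alternatives) and the responses are not shown to differ. Summed astrocyte markers also separated the genotypes in NS OPCs, and since fewer cells of a type and less RNA per cell cannot be told apart in bulk RNA, their part in the lower *Bcl2l11* was not tested.

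*Pmaip1* (NOXA), which neutralizes MCL1 above all, rose in both genotypes. Its level was 89.0, 73.3 and 70.0 FPKM in WT NS and 179, 162 and 156 FPKM in WT St libraries. In TNFR2-/- OPCs it was 71.3, 67.0 and 54.9 FPKM in NS and 159, 124 and 116 FPKM in St libraries. Every St library was above every NS library, and the St groups of both genotypes overlapped. The rise was 1.10 ± 0.14 on the log2 scale in WT (2.14-fold, adjusted p = 0.000302) and 1.04 ± 0.14 in TNFR2-/- OPCs (2.05-fold, adjusted p = 0.000341), the adjusted p stayed at most 0.05 under all 26 alternatives, and the interaction was −0.06 (95% interval −0.50 to 0.37). In both conditions TNFR2-/- OPCs had the lower mean, by −0.26 ± 0.14 in NS (adjusted p = 0.231) and −0.33 ± 0.14 in St OPCs (adjusted p = 0.166), neither past the test.

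*Bbc3* (PUMA; ENSMUSG00000002083, GRCm38 chr7:16308393-16318205, plus strand), a p53 target whose product can bind every survival protein, rose in WT OPCs. It was 99.6, 79.1 and 96.7 FPKM (356, 253 and 345 reads) in WT NS and 167, 162 and 185 FPKM (597, 579 and 664 reads) in WT St libraries. In TNFR2-/- OPCs it was 67.3, 87.4 and 95.3 FPKM (241, 315 and 344 reads) in NS and 116, 149 and 97.2 FPKM (415, 535 and 332 reads) in St libraries. WT St stood above all other groups without overlap. The rise was 0.90 ± 0.17 on the log2 scale in WT (1.87-fold, adjusted p = 0.00374, and at most 0.05 under all 26 alternatives). In TNFR2-/- OPCs *Bbc3* rose by 0.52 ± 0.17 (adjusted p = 0.0401), short of the fold threshold and above an adjusted p of 0.05 in 11 of 26 alternatives. One culture stood apart, since *Bbc3* was higher in St by 0.78 and 0.76 in TNFR2-/- cultures 2 and 4 and by 0.03 in culture 5. Without culture 5 the value was 0.77 ± 0.17 (adjusted p = 0.0125), a call. The adjusted p also passed 0.05 without each of 9 single libraries in turn, among them WT NS replicate 2 (0.0504), WT NS replicate 4 (0.0549), WT St replicate 2 (0.0551), WT St replicate 3 (0.0529) and WT St replicate 4 (0.0534), which enter only through the shared spread, and TNFR2-/- NS replicate 2 (0.136), TNFR2-/- NS replicate 4 (0.0631), TNFR2-/- St replicate 2 (0.0783) and TNFR2-/- St replicate 4 (0.139).

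After stimulation *Bbc3* was lower in TNFR2-/- than in WT OPCs, with no overlap, by a log2 fold change of −0.52 ± 0.17 that did not pass the test (adjusted p = 0.0825), whereas in NS OPCs the difference was −0.15 (95% interval −0.51 to 0.22). Non-overlap alone is common here, since 32.7% of all genes had St groups that did not overlap. Without TNFR2-/- St replicate 4 the St difference was −0.68 (adjusted p = 0.0412), a call, and without culture 5 it was −0.38 (adjusted p = 0.181). The interaction was −0.38 ± 0.23 (adjusted p = 0.751). With a weight for each library, 4 members passed an adjusted p of 0.05 between St groups, and 0 were called. These 4 were *Mcl1* (−0.29, adjusted p = 0.0217), *Bax* (−0.29, adjusted p = 0.0437), *Bbc3* (−0.50, adjusted p = 0.0484) and *Bid* (0.48, adjusted p = 0.0442). The share of all genes that passed an adjusted p of 0.05 in this fit was not counted, and 506 genes were called.

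*Bid* (ENSMUSG00000004446, GRCm38 chr6:120891930-120916853, minus strand), whose protein is cut by caspase 8 and carries death receptor signals to mitochondria, had the reverse genotype order. It was 1.37, 1.32 and 1.22 FPKM (164, 141 and 145 reads) in WT NS and 2.23, 1.94 and 1.85 FPKM (267, 232 and 222 reads) in WT St libraries. In TNFR2-/- OPCs it was 1.78, 1.44 and 2.27 FPKM (213, 173 and 274 reads) in NS and 3.00, 2.45 and 4.17 FPKM (358, 295 and 476 reads) in St libraries. TNFR2-/- St stood above and WT NS below all other groups, with TNFR2-/- NS and WT St overlapping between them. *Bid* rose in TNFR2-/- OPCs by 0.66 ± 0.17 on the log2 scale (1.58-fold, adjusted p = 0.0186), and in WT OPCs the value was 0.48 ± 0.17 (1.39-fold, adjusted p = 0.0988). These folds include the 0.5 FPKM added before the log. Without it, the ratio of St to NS FPKM within a culture was 1.474 to 1.625 in WT and 1.685 to 1.836 in TNFR2-/- cultures. All 6 cultures were higher in St (by 0.43 to 0.54 in WT and 0.61 to 0.75 in TNFR2-/-), the interaction was 0.18 ± 0.25 (adjusted p = 0.923), and with each culture as a replicate block the rise in WT passed the test (adjusted p = 0.00377).

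The call of *Bid* in TNFR2-/- OPCs was lost without TNFR2-/- NS replicate 2 (adjusted p = 0.0507), TNFR2-/- NS replicate 4 (0.0649) or TNFR2-/- St replicate 5 (0.0542), and kept without both libraries of culture 5 (0.61, adjusted p = 0.0147). Between genotypes *Bid* differed by 0.35 ± 0.17 in NS (adjusted p = 0.203) and 0.54 ± 0.17 in St OPCs (adjusted p = 0.0877), neither past the test. TNFR2-/- replicate 5 was highest in both conditions, and summed astrocyte markers were highest in the same libraries (1869 and 1960 CPM), whose part in the level of *Bid* was not tested. Without culture 5 the genotype differences were 0.22 in NS (adjusted p = 0.298) and 0.36 in St OPCs (adjusted p = 0.138). *Bid* shares 15.08% of its stretches of 100 transcript bases with *Bcl2l13*, on the opposite strand, and whether the counting used strand is not given in the sources used here. *Bcl2l13* itself differed by 0.00 in WT and −0.03 in TNFR2-/- OPCs with cytokines.

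*Bik* was not measurable at this depth. It had 1, 2 and 0 reads in WT NS, 3, 2 and 4 in TNFR2-/- NS, 3, 1 and 1 in WT St and 0, 0 and 2 in TNFR2-/- St libraries, and no fold is given.

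**Figure D3:**
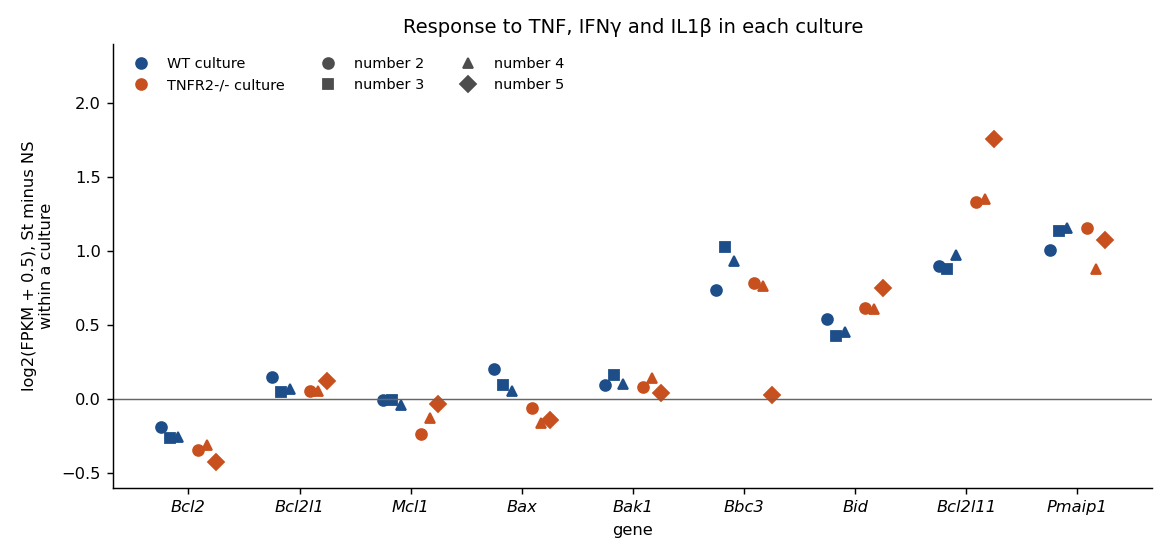
Change with cytokines within each numbered culture (vertical axis, difference in log2(FPKM + 0.5), St minus NS) for 9 genes, with WT and TNFR2-/- cultures side by side and the number shown by shape. *Bcl2l11* lies at 0.88 to 0.97 in WT and 1.33 to 1.76 in TNFR2-/- cultures, and *Bbc3* in TNFR2-/- culture 5 lies at 0.03, apart from all other cultures.

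**Figure D4:**
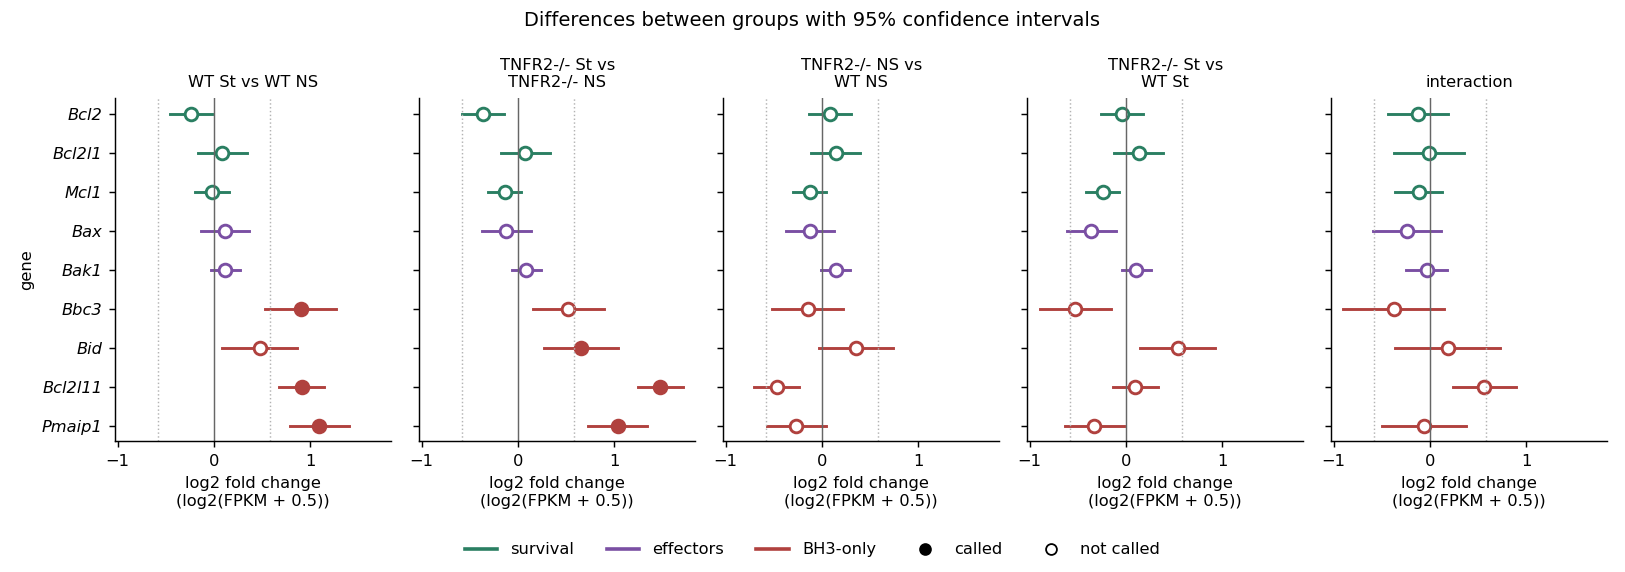
Log2 fold change of 9 genes with 95% confidence interval (horizontal axis, log2(FPKM + 0.5)) in the 5 comparisons, filled where called and with dotted lines at a 1.5-fold change. The filled points are *Bbc3*, *Bcl2l11* and *Pmaip1* in WT OPCs and *Bid*, *Bcl2l11* and *Pmaip1* in TNFR2-/- OPCs.

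Promoter windows of the family that held letters bound by known regulators are shown, whether or not the gene responded. The set of RefSeq promoters (GRCm38.p6) used here held entries for 8 of the 10 genes, and *Bik* and *Pmaip1* were absent from this set. The 250 bases before each start were searched on both strands for 7 motifs (GAS, TTCNNNGAA; the core of ISRE; FOXO, GTAAACA; AP-1, TGANTCA; E2F, TTTCGCGC; kappaB; and the p53 half-site) in 10 windows of 7 genes that lie outside exons over at least a part of their length. Motifs were found in 4 windows. FOXO letters, present in 3.17% of all promoters, stood in 1 window each of *Bcl2l11* and *Bbc3*, both FOXO targets in other cell types. In capitals is GTAAACA, at bases −227 to −221 from the start, in *Bcl2l11* (chr2:128125788-128126037, plus strand), and its reverse complement, at bases −167 to −161, in *Bbc3* (chr7:16310011-16310260, plus strand).
Bcl2l11: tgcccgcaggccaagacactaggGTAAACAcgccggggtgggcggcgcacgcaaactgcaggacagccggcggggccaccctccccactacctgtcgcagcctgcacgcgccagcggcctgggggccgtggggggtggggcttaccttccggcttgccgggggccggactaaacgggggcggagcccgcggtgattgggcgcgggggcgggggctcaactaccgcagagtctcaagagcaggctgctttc
Bbc3: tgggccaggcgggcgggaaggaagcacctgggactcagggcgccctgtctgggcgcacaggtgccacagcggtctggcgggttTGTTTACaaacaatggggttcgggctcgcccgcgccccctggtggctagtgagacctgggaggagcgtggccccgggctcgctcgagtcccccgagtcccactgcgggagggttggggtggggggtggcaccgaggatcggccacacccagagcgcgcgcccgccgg

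A window before another start of *Bbc3* (chr7:16309333-16309582, plus strand) held overlapping kappaB matches, capitalized below and present in 3.9% of all promoters. The window of *Bax* (chr7:45466899-45467148, minus strand) held a p53 half-site at bases −201 to −192, capitalized below and present in 7.13% of all promoters. The windows of *Bid*, *Bcl2*, *Mcl1* and *Bcl2l1* held none of these letters. A match is a description of the sequence, and binding was not measured.
Bbc3 upstream start: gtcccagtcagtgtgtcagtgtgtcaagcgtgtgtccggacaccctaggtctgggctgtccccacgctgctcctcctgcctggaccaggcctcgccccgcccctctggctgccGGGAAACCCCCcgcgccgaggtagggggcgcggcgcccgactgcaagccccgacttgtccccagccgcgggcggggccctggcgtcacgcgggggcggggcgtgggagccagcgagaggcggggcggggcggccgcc
Bax: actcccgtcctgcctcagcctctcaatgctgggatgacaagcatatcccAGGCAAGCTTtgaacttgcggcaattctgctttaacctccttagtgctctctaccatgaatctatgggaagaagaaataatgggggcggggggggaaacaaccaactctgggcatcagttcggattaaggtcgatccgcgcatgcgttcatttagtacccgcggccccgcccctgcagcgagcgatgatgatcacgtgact

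Transcripts of some regulators of BCL2 family transcription changed with cytokines, and whether any of them acts at the windows above was not tested. Of 16 regulators of BCL2 family transcription other than p53, 6 were called higher and 1 lower in WT OPCs and 7 higher and 1 lower in TNFR2-/- OPCs. Of all genes tested, 4.58% were called higher and 2.95% lower in WT OPCs, and 5.41% and 4.68% in TNFR2-/- OPCs. This list and those below were chosen with earlier results of these data known, so their counts are a description only. *Irf1*, an interferon-responsive factor, rose most (7.28 in WT and 6.69 in TNFR2-/- OPCs), and among NF-kappaB subunits *Relb* rose by 2.26 and 2.41 and *Nfkb1* by 1.87 and 2.38 (log2 fold changes, adjusted p at most 3.44e-06). *Jun*, an AP-1 subunit, was called in TNFR2-/- OPCs (1.32 ± 0.23, adjusted p = 0.00219) with 0.60 ± 0.23 in WT (adjusted p = 0.121), and in NS OPCs it was lower in TNFR2-/- than WT (−1.01 ± 0.23, adjusted p = 0.0282). *Irf1* was higher there (0.66 ± 0.13, adjusted p = 0.0188). *Mycn* fell in both genotypes (−1.91 and −1.32, adjusted p = 0.00297 and 0.0162). None of the 3 FOXO genes, named for their letters after their values were seen, was called. *Foxo3* rose by 0.44 ± 0.11 in WT (adjusted p = 0.0169) and by 0.45 ± 0.11 in TNFR2-/- OPCs (adjusted p = 0.00975). *Foxo4* fell by 0.28 ± 0.08 on the log2 scale in TNFR2-/- OPCs (adjusted p = 0.0279), with −0.23 in WT (adjusted p = 0.0805). *Foxo1* had values of 0.22 and 0.32 (adjusted p = 0.255 and 0.0618). The median of this list was 0.36 in WT and 0.42 in TNFR2-/- OPCs, against −0.05 and −0.11 for all genes.

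Of 18 genes for p53 and its targets, 5 were called higher in WT OPCs and 5 higher and 1 lower in TNFR2-/- OPCs. Of all genes, 4.58% were called higher in WT OPCs, and 5.41% higher and 4.68% lower in TNFR2-/- OPCs. *Trp53*, which encodes p53, rose by 1.16 ± 0.07 and 1.02 ± 0.07 (adjusted p = 7.78e-07 and 1.85e-06). The death receptor *Fas* rose by 2.70 and 2.67, *Btg2*, an inhibitor of proliferation, by 1.05 and 1.39, and the receptor *Eda2r* by 0.82 and 1.22 (adjusted p at most 0.0193). *Eda2r* was also called lower in TNFR2-/- than WT NS OPCs (−0.76 ± 0.18, adjusted p = 0.0282), the only gene of the list called between genotypes. *Sesn1*, a stress-induced inhibitor of mTORC1, was the one called lower (−0.84 ± 0.08 in TNFR2-/- OPCs, with −0.57 ± 0.08, short of the fold threshold, in WT). The other 13 were not called in WT OPCs, the cell cycle inhibitor *Cdkn1a*, a standard readout of p53 named after its values were seen, among them (0.28, adjusted p = 0.379). The list's median was 0.21 in WT and 0.24 in TNFR2-/- OPCs. Between genotypes, 3 of the 18 passed by adjusted p alone in NS and 4 in St OPCs, against 10.9% and 5.45% of all genes. The median for TNFR2-/- vs WT was −0.16 in NS and −0.21 in St OPCs, with 4 and 2 of the 18 higher in TNFR2-/-.

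The arm that reaches mitochondria through *Bid* had the same 6 of 8 genes called higher in each genotype, against 4.58% of all genes in WT and 5.41% in TNFR2-/- OPCs. These were the receptors *Fas*, *Tnfrsf10b* and *Tnfrsf1a* (the last encoding TNFR1, 1.38 in WT and 1.06 in TNFR2-/- OPCs), the adaptor kinase *Ripk1* (2.16 and 2.10), *Casp8*, the caspase that cuts BID (0.90 and 0.83, adjusted p = 0.0159 and 0.0167), and *Cflar*, which restrains it (0.79 and 1.15, adjusted p = 0.00372 and 0.000233). The adaptors *Fadd* and *Tradd* were not called. *Fas* and *Tnfrsf10b* are in the p53 list as well. The list's median was 0.85 in WT and 0.95 in TNFR2-/- OPCs, and 0 of 8 were called between genotypes or in the interaction.

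Downstream of the membrane, *Apaf1* and *Casp9* moved in opposite directions. *Apaf1*, the scaffold of the apoptosome, rose by 0.51 ± 0.08 in WT (adjusted p = 0.00206, short of the fold threshold) and 1.01 ± 0.08 in TNFR2-/- OPCs (adjusted p = 1.13e-05). *Casp9*, which the apoptosome activates, fell in both, by 0.48 ± 0.11 and, as a call, by 0.66 ± 0.11 on the log2 scale (adjusted p = 0.0141 and 0.00147). *Endog*, a mitochondrial nuclease, was called higher in TNFR2-/- than WT NS OPCs (0.67 ± 0.14, adjusted p = 0.0215). The median of the 17 genes of this list was 0.00 in WT and −0.13 in TNFR2-/- OPCs, close to that of all genes.

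The rest of the family had no call. Of 14 other BCL2 family genes, 7 passed the filter on low values (*Bcl2l2*, *Bok*, *Bad*, *Bmf*, *Hrk*, *Bcl2l12* and *Bcl2l13*) and 0 were called in any comparison, although 2 had an adjusted p of at most 0.05 in TNFR2-/- OPCs. These were *Hrk*, a BH3-only gene (−0.55 ± 0.16, adjusted p = 0.0255), and *Bok*, an effector relative (−0.55 ± 0.15, adjusted p = 0.0233). The 0.5 FPKM added before the log makes both changes too small at such low levels. Mean CPM without it was 3.45 in TNFR2-/- NS and 1.92 in TNFR2-/- St for *Hrk*, and 12.4 and 7.26 for *Bok*. Among the 7 that did not pass, *Bcl2a1a*, *Bcl2a1b*, *Bcl2a1c* and *Bcl2a1d*, survival genes that NF-kappaB induces in immune cells, had at most 1 read in any library, stimulated ones included. *Bcl2a1a*, *Bcl2a1b* and *Bcl2a1d* share 43.5%, 56.8% and 54.7% of their stretches of 100 transcript bases with other genes and *Bcl2a1c* 0%, and how reads matching several copies were counted is not given in the sources used here.

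**Figure D5:**
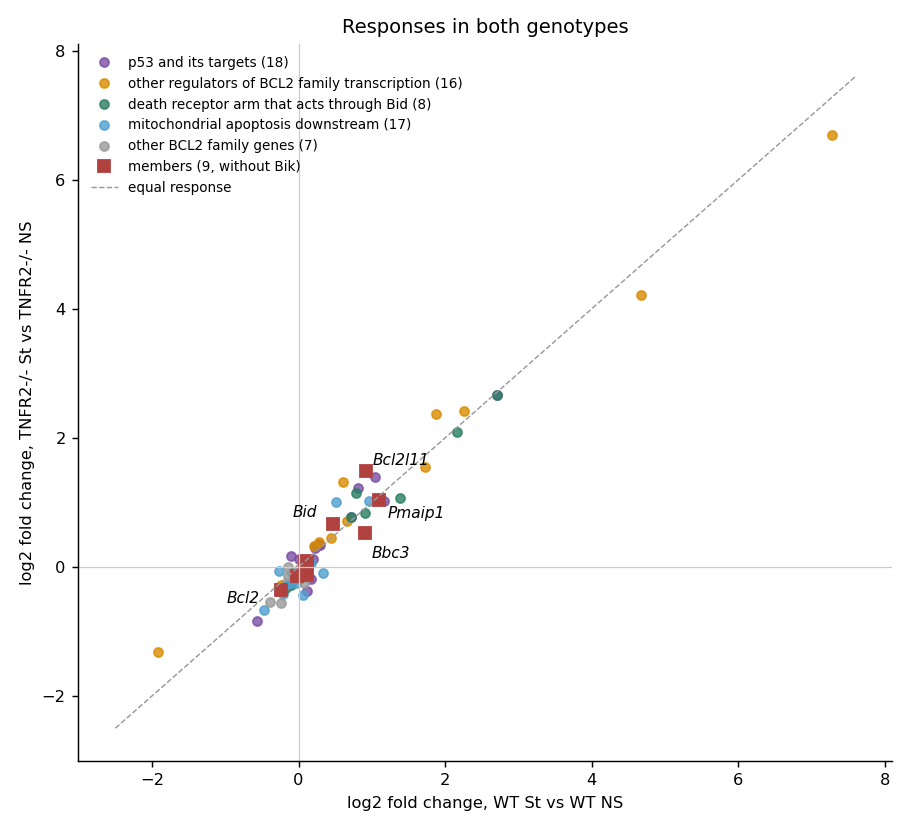
Log2 fold change with cytokines in WT OPCs (horizontal axis) and TNFR2-/- OPCs (vertical axis), which share no libraries, for 9 members and the genes of 5 lists, with a dashed line of equal response. *Bcl2l11* lies above the line (0.91 and 1.48) and *Bbc3* below it (0.90 and 0.52), and the interaction of neither passed the test. The regulator at the upper right is *Irf1* (7.28 and 6.69).

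Over the 12 libraries, the genes whose log2 level followed each responding member most closely, among 13554 genes of 1 FPKM or more on average, were *Xk*, *Aebp2* and *Junb* for *Bcl2l11* (Pearson's r 0.985 to 0.990), *Wbp5*, *Lix1l* and *Fhod3* for *Pmaip1* (0.968 to 0.976), *Rnf145*, *Zfp697* and *Atp13a4* for *Bid* (0.981 to 0.986) and *Ube4b*, *Gbx2* and *1810013L24Rik* for *Bbc3* (0.940 to 0.962). The points share 4 groups and 6 cultures, and libraries of 1 group lie together. Among the members themselves, *Bcl2l11* and *Pmaip1* had an r of 0.912 over the libraries but −0.136 once group means were removed, and *Bcl2l1* and *Bak1* one of 0.832 and 0.789.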

How the data were processed

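FPKM of 12 libraries were given in a table for NS and a table for St OPCs. The FPKM deposited were computed by the authors, who used Trim Galore for trimming, STAR for alignment to GRCm38 and for counting of read pairs on Ensembl genes, and EdgeR for calls not used here. Entries that share a symbol (229 of 45792 a table) were left out. Because FPKM are whole multiples of what 1 read is worth, reads could be recovered, whole within 0.02 for 26635 of 26636 genes. The implied gene length and the GENCODE M21 exon length had a Spearman correlation of 0.0099 across 16010 genes, which are not independent replicates.

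The test was limma 3.58.1 (R 4.3.3) on log2(FPKM + 0.5), with 4 group means over all 12 libraries and a mean-dependent prior. A filter of 0.1 FPKM on the mean left 18081 genes, over which Benjamini-Hochberg adjustment was done. The pseudocount understates changes of genes with few FPKM. An exact permutation test of 3 against 3 libraries cannot go below 0.1. Replicate numbers were checked by correlating deviations from group means. Inside a genotype, same-numbered NS and St libraries gave 0.338 to 0.649 (6 pairs) and others −0.455 to 0.088 (12 pairs), so a number marks a culture, and across genotypes numbers did not pair. The authors' legends to figures with FPKM panels speak of 3 independent experiments, but nothing says that cultures of a group came from separate animals. The p-values thus measure the spread between these cultures, which may be technical. The fit and the calls were tested on simulated counts for TNFR2-/- St vs WT St, with libraries drawn independently of each other. Read recovery, the other comparisons and the replicate blocks were not tested in this way. Members and gene lists were chosen with earlier results of these data known. Named genes were all members and, of each list, at most 4 called genes a comparison by size of change, besides those said to be named later. Results of some list genes are not reported here. Python 3.11.15, numpy 2.4.6, pandas 2.3.3 and matplotlib 3.10.9 were used. Alternatives were other pseudocounts, filters, scalings, thresholds and fits, a replicate block, voom, each library left out and, chosen after seeing the data, TNFR2-/- culture 5 left out.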

Additional observations from a re-analysis of the deposited data

Results flagged for a closer look

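*Bax* was the 1 gene of the 10 for which every WT culture moved one way with cytokines and every TNFR2-/- culture the other. The mean change was 0.1168 in WT and −0.1197 in TNFR2-/- cultures on the log2 scale, with ranges of 0.05 to 0.20 and −0.16 to −0.06. The interaction, −0.24 ± 0.16 (SE, from the fit without pairing by culture), did not pass the test (adjusted p = 0.767, and 0.118 to 0.943 over its alternatives).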

How the results depend on the processing

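Of 1161 results of a member under an alternative, *Bik* left out, 1115 stayed on their side of an adjusted p of 0.05, 27 lost it, 19 gained it and 0 reversed as a called value. Most of the 1161 belong to comparisons that were above 0.05 as fitted, and these could not lose it. *Bcl2l11* and *Pmaip1* in both genotypes and *Bbc3* in WT OPCs stayed at an adjusted p of at most 0.05 throughout. At a log2 fold threshold of 1, *Bcl2l11* and *Bbc3* were not called in WT OPCs. That threshold was set on values with 0.5 FPKM added. Without it, the ratio of St to NS FPKM in WT cultures was 2.02 to 2.20 for *Bcl2l11* and 1.67 to 2.05 for *Bbc3*. *Bid* and *Bbc3* in TNFR2-/- OPCs and *Bcl2l11* between NS groups depended on single libraries. Depth limits *Bik*, with 0 to 4 reads a library.

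Members called in TNFR2-/- NS vs WT NS numbered 1 with no fold threshold, with log2(CPM + 0.5) and with voom, and 0 with any library left out. In WT St vs WT NS there was 1 at a log2 fold threshold of 1 (3 to 3 with a library left out), in TNFR2-/- St vs TNFR2-/- NS there were 5 with no fold threshold (2 to 4 with a library left out), and in TNFR2-/- St vs WT St 0 to 1 with a library left out. Genes called in TNFR2-/- NS vs WT NS, 524, became 322 without the filter, 7 over the 6 libraries compared, 1848 with no fold threshold, 126 at a threshold of 1 and 49 to 952 with a library left out. In WT St vs WT NS, 1361 became 2626 with no fold threshold and 748 at 1, and in TNFR2-/- St vs TNFR2-/- NS, 1824 became 4235 and 931. In TNFR2-/- St vs WT St, 325 became 188 without the filter, 47 over the 6 libraries, 506 with a weight for each library, 893 with no fold threshold, 97 at 1 and 39 to 464 with a library left out. The interaction had 1 gene, 0 with voom and 1 to 2 with a library left out.

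With a replicate block within genotype, members called stayed at 3 in WT and 3 in TNFR2-/- OPCs, and genes called were 1590 and 2049. With the block, *Bid* in WT OPCs (adjusted p = 0.00377), *Bcl2* in WT OPCs (−0.24, adjusted p = 0.0337) and *Mcl1* in TNFR2-/- OPCs (−0.13, adjusted p = 0.0382) passed the test, and no other member changed sides. A replicate block that also joined numbers across genotypes, which the check of pairing did not bear out, brought *Mcl1* (−0.26, adjusted p = 0.0294), *Bax* (−0.25, adjusted p = 0.0218), *Bid* (0.38, adjusted p = 0.0267) and *Pmaip1* (−0.25, adjusted p = 0.0395) between St groups and *Bak1* between NS groups (0.16, adjusted p = 0.0368) and in WT OPCs (0.12, adjusted p = 0.0478) past the test.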
